A study of Saccharomyces cerevisiae with 9 samples.

Results

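The response that overexpression of EGFP and overexpression of moxGFP had in common was read from 9 yeast RNA-seq libraries by setting the 6 overexpression libraries, as a single side, against the 3 libraries of the vector control. All gene rows entered except the ERCC spike-ins and the entries of the GFPs themselves, which left 7126 genes, and 6350 of them passed the filter on low counts. A gene counted as on the same side when all 6 overexpression libraries lay above, or all 6 below, all 3 vector libraries. The strain was BY4743, a diploid laboratory strain of Saccharomyces cerevisiae that lacks functional HIS3, LEU2 and URA3 and carries 1 intact copy each of LYS2 and MET15. Every strain held the multicopy plasmid pTOW40836, which carries URA3 and leu2-89, a LEU2 allele with a weak promoter, and it held either no further gene (vector control), EGFP (GFPop) or moxGFP, a GFP without cysteine (MOXop). Both GFPs were driven by the strong TDH3 promoter. Cells grew in SC–Leu/Ura, a medium that selects for high plasmid copy number, and were harvested in log phase, with 3 biological replicates of each strain. The GFP strains thus differed from the control in the amount of GFP and, through the plasmid, in whatever the insert did to plasmid copy number and growth.

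A protein made in very large amounts occupies ribosomes, chaperones and metabolites that the rest of the cell also needs, and a GFP has no work to do in yeast, so that its cost can be studied apart from any function. Yeast cells adjust their transcripts through regulators that each control a small and well-known group of genes. Pho4 turns on phosphate uptake when phosphate is short, Zap1 does so for zinc and Aft1 for iron, Bas1 with Pho2 turns on purine synthesis, Msn2 and Msn4 act in general stress, Hsf1 acts on chaperones, and ribosome production is tuned to growth.

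Gene counts without the GFP entries ran from 10643852 to 12959591 per library in the vector control and from 5301330 to 8553398 in the overexpression strains, so depth moved with the comparison. moxGFP replicate 2 stood apart: ribosomal RNA took 61.2% of its gene counts against 2.74 to 23.0% in the other libraries. Across genes its log2 CPM had a Pearson r of 0.814 and 0.816 with its replicates, where the other replicate pairs had 0.952 to 0.978. The moxGFP transcript took 4.11% of gene counts with the GFP entries in that library, against 17.98 and 31.1% in moxGFP replicates 1 and 3. The EGFP transcript took 11.2 to 23.8% in the EGFP libraries. Ribosomal RNA is part of these totals, so its large share in moxGFP replicate 2 lowers the share of the transgene there. CPM are counts scaled to a common library total with TMM, a factor that assumes that most genes do not change, so that every level is relative to the other RNAs of the same library. Less RNA of a gene per cell and fewer cells that express it cannot be told apart in such bulk samples. Of 18 genes that a cell with both mating types keeps low, all were measured and 0 were at zero in all libraries, and the median of their mean levels was 8.90 CPM against 21.9 CPM for all genes. Their summed level was 292 to 415 CPM in the vector control, 169 to 216 CPM with EGFP and 167 to 211 CPM with moxGFP. Most of it in the vector control came from FAR1, which arrests haploid cells in response to pheromone, and SAG1, the alpha-agglutinin, at 119 to 149 and 49.5 to 122 CPM, well above the median gene. STE18, which encodes a subunit of the pheromone-response G protein, was the lowest of the list, with at most 0.331 CPM in any library.

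For the mean of both GFP strains, 707 genes were higher (11.1% of those tested) and 806 lower (12.7%) than in the vector control. This was by edgeR's quasi-likelihood test at a Benjamini-Hochberg adjusted p below 0.05 over all genes tested. Each strain kept its own mean in the fit, so the difference between the GFPs did not enter the spread. With both GFPs as 1 group of 6 libraries, 299 genes were higher and 440 lower. All 6 overexpression libraries lay above the vector libraries for 639 genes (10.1%) and below them for 790 genes (12.4%). The genes that met both conditions are called shared genes here, 468 higher (7.37%) and 651 lower (10.3%). A shared gene need not pass the test in each strain. With EGFP alone against the vector, 263 of the 468 and 385 of the 651 passed, and with moxGFP alone 391 and 547. The choice of these genes used their values, so their changes against the vector are a description. Over all genes tested the log2 fold change had a median of 0.13. The shared genes that rose had a median of 1.25, a range from 0.61 to 5.08 and 44 members over 4-fold. Those that fell had a median of −1.38, reached −7.16 and had 87 members over 4-fold. Without vector replicate 1, 148 shared genes rose and 324 fell, without vector replicate 3 the rises were 224, and without moxGFP replicate 2 they were 827. The calls by the test alone were 162 and 332 without vector replicate 1, 243 and 460 without vector replicate 3, 399 and 535 without EGFP replicate 1 and 1282 and 1296 without moxGFP replicate 2. The genes above the vector numbered 1031 without vector replicate 2 and 965 without moxGFP replicate 2. With fewer libraries that rule is easier to meet, so a rise of this count was built in. Over 16-fold were 6 genes that fell, ZPS1, PHO89, PHO84, OPT2, CSS1 and ADE17, and 4 that rose, DDR2, NCA3, HSP12 and PAU19. PAU19, chosen after its values were seen, had 0 to 0.170 CPM in the vector control and near-identical copies elsewhere in the genome, so its level is uncertain.

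**Figure D1:**
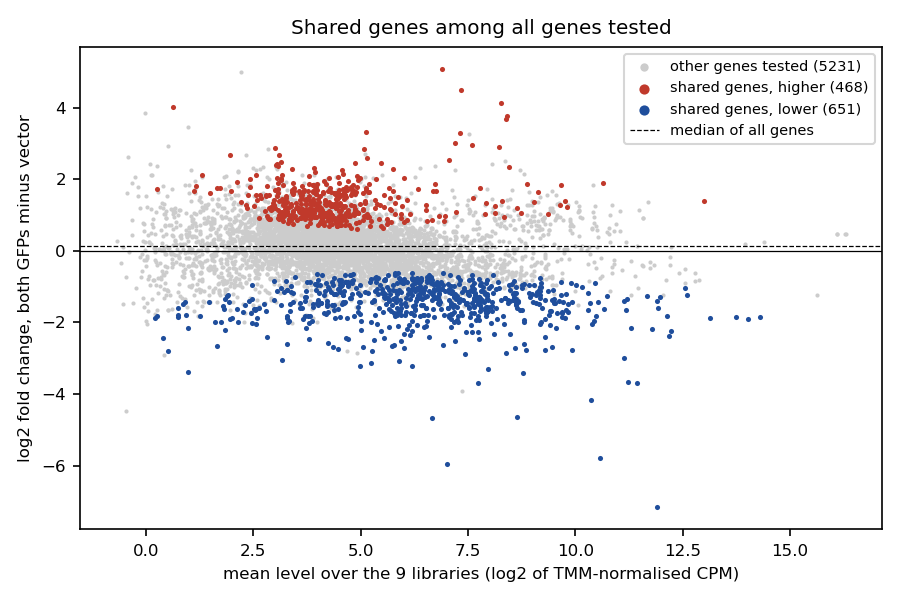
Each point is a gene, with its mean level over the 9 libraries (log2 of TMM-normalised CPM) on the horizontal axis and the log2 fold change of both GFPs minus the vector control on the vertical axis. The 468 shared genes that were higher (red) and the 651 that were lower (blue) stand against the other genes tested (grey), the dashed line marks the median of all genes at 0.13, and the lowest point is ZPS1 at −7.16.

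The shared genes that fell included many of the most abundant transcripts. They took 44.5, 44.3 and 41.1% of all counts outside ribosomal RNA and the GFPs in the 3 vector libraries. The share was 22.2, 23.9 and 22.2% with EGFP and 22.5, 12.4 and 17.6% with moxGFP. The shared genes that rose took 1.13, 1.47 and 1.32% in the vector control, 5.06, 4.45 and 4.61% with EGFP and 4.96, 6.79 and 6.11% with moxGFP. The groups do not overlap in either share, which follows from how the genes were chosen.

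**Figure D2:**
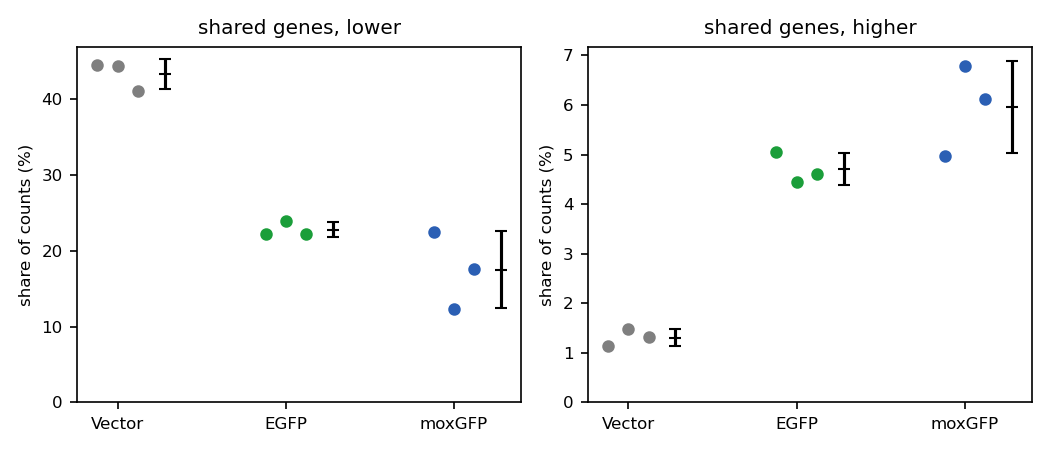
Points are the share of counts outside ribosomal RNA and the GFPs, in percent, that the shared genes took in each library, and the black bar beside them is the mean with the SD of 3 replicates. The left panel shows the genes that were lower, with the plasmid markers LEU2 and URA3 among them. They took between 41.1 and 44.5% in the vector control and at most 23.9% in the overexpression strains. The right panel shows those that were higher, at most 1.47% in the vector control and at least 4.45% in the overexpression strains.

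The largest fall was in a zinc gene. ZPS1, which encodes a cell wall protein made when zinc is short, stood at 13079, 8373 and 12254 CPM in the vector libraries. With EGFP it was at 56.0, 57.8 and 66.5 CPM, and with moxGFP at 85.9, 190 and 31.3 CPM. By the choice of shared genes every overexpression library was below every vector library. The log2 fold change was −7.16 ± 0.52 (SE, 3 against 6 libraries, edgeR adjusted p = 3.6e-05), or 143-fold lower. ZRT3, the transporter that releases zinc from the vacuole, fell from 2479, 2141 and 2145 CPM to 309, 416 and 284 CPM with EGFP and 447, 292 and 240 CPM with moxGFP. ZRT1, the high-affinity zinc importer of the plasma membrane, had a log2 fold change of −2.23 ± 0.34 and VEL1, which has a near-identical copy, of −2.46 ± 0.25. Of the 13 zinc genes listed, 8 were lower and 0 higher, with a median of −1.28 over the list against 0.13 over all genes, and the 8 were also below the vector in all 6 libraries. Among them were ZAP1, the zinc-sensing activator itself, at −1.28, the vacuolar importer ZRC1 at −1.16, the low-affinity metal transporter FET4 at −1.46 and the alcohol dehydrogenase ADH4 at −1.78. The low-affinity zinc importer ZRT2 had −0.37, which did not pass the test. The summed level of the list was 24608 to 28055 CPM in the vector control, 3093 to 4120 CPM with EGFP and 3082 to 5610 CPM with moxGFP.

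Zap1 binds a palindrome whose core reads CCTTNAAGG. The letters were searched on both strands in the 500 bases before each start codon of the R64 reference of strain S288C, and 47 of 5839 genes with such a window held them (0.805%). They stood before 5 of the 623 shared genes that fell and have such a window (0.803%). Of the 8 zinc genes that fell, 2 held them, and these are shown because they are the members in which the core stands without a mismatch. The windows of 30 bases are written 5′ to 3′ on the strand of the gene with the motif in capitals.
ZRT1, chromosome VII, from 203 to 195 bases before the start codon: acatatttgaCCTTGAAGGtcatggaaagt
ZRC1, chromosome XIII, from 173 to 165 bases before the start codon: cttcagatggCCTTGAAGGtgaggaatgag
ZPS1 and the other members held no such letters in the window, which says nothing of Zap1 at these genes. A match is a description of the sequence.

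Phosphate genes fell nearly as far. PHO84, the high-affinity phosphate importer, was at 4425, 5935 and 2810 CPM in the vector control, at 47.2, 39.8 and 24.4 CPM with EGFP and at 227, 66.6 and 205 CPM with moxGFP. The groups were far apart and the log2 fold change was −5.80 ± 0.44 (edgeR adjusted p = 3.7e-05), but PHO84 overlaps a non-coding RNA gene and whether reads were counted by strand is not stated, so its level is uncertain. PHO89, the sodium-coupled phosphate importer, was at 461, 547 and 119 CPM in the vector control and between 3.31 and 8.30 CPM in all 6 overexpression libraries, a fold change of −5.96 ± 0.45 on the log2 scale. Vector replicate 3 was the lowest of the controls for both importers. PHO12, a secreted acid phosphatase nearly identical to PHO11 and for that reason uncertain, went from 175 to 190 CPM to between 15.5 and 25.5 CPM (−3.22 ± 0.20). PHO5, the main secreted acid phosphatase, was at 496, 347 and 372 CPM in the vector control, 38.3, 45.0 and 39.2 CPM with EGFP and 78.2, 89.7 and 50.9 CPM with moxGFP. Of 18 phosphate genes listed, 12 were lower and 0 higher, and all 12 were below the vector in every library. The 12 included the polyphosphate synthesis subunits VTC1, VTC3 and VTC4 (−1.75, −1.96 and −2.26), the vacuolar phosphatase PHO8 (−1.81), the glycerophosphoinositol importer GIT1 (−2.80) and SPL2, a repressor of low-affinity phosphate uptake (−3.12). The importer PHO90 had 0.13, the phosphatase PHM8 0.45 and the kinase inhibitor PHO81 −0.28, and none of these passed the test. The list had a median of −2.11.

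Pho4 binds CACGTG, which is its own reverse complement. It was found before 363 of 5839 start codons (6.22%), and before 10 of the 12 phosphate genes that fell (83.3%). The hexamer also stood before 13 of all 18 listed phosphate genes (72.2%), so the members that fell were much like the whole list. Over all 623 shared genes that fell and have such a window, 56 held it (8.99%). The windows of 4 are shown because these genes carry most of the phosphate result. The same hexamer is bound by Cbf1. It was found before 7 of the 10 sulfate and methionine genes that fell (70%) and before 15 of all 20 listed (75%).
PHO84, chromosome XIII, from 414 to 409 bases before the start codon: tgttatttccagCACGTGgggcggaaatta
PHO89, chromosome II, from 323 to 318 bases before the start codon: atgacaatgcagCACGTGggagacaaatag
PHO5, chromosome II, from 253 to 248 bases before the start codon: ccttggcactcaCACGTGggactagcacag
PHO12, chromosome VIII, from 283 to 278 bases before the start codon: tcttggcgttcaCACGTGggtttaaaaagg
GIT1 and PHO8 were the members without the hexamer in the window.

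Purine synthesis fell as a whole. All 13 genes listed were lower and 12 of them were below the vector in every library, with a median of −2.07. ADE17, which carries out the last steps to IMP, was at 5262, 3950 and 1333 CPM in the vector control, 295, 343 and 287 CPM with EGFP and 183, 52.0 and 131 CPM with moxGFP (−4.18 ± 0.45, edgeR adjusted p = 0.00034). ADE57, the gene of the bifunctional enzyme Ade5,7, was at 9559, 9305 and 2623 CPM against 366 to 806 CPM in the 6 overexpression libraries (−3.70 ± 0.44). SHM2, the cytosolic serine hydroxymethyltransferase that supplies one-carbon units, was at 10376, 6086 and 2269 CPM against 361 to 635 CPM (−3.68 ± 0.43). Vector replicate 3 was again far below the other controls for these 3 genes, and it still lay above all 6 overexpression libraries. The smallest falls in the list were those of ADE8, with −1.24, whose libraries overlapped, and ADE16, the paralogue of ADE17, with −1.06. The summed level of the list was 9865 to 32842 CPM in the vector control, 2611 to 3248 CPM with EGFP and 1751 to 3051 CPM with moxGFP.

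TGACTC is the core bound by Bas1 and also by Gcn4, the activator of amino acid synthesis. It was found on either strand before 742 of 5839 start codons (12.7%) and before 30 of 40 listed genes of amino acid synthesis (75%). Of the 12 shared purine genes 11 held it (91.7%), and of all 13 listed purine genes 12 did (92.3%). Over all 623 shared genes that fell and have such a window, 92 held it (14.8%). The windows of the 3 purine genes with the largest falls are shown.
ADE17, chromosome XIII, from 177 to 172 bases before the start codon: ccagaaatgaatTGACTCctctcataactt
ADE57, chromosome VII, from 184 to 179 bases before the start codon: acaagtgccgacTGACTCgtgtcctggtaa
SHM2, chromosome XII, from 227 to 222 bases before the start codon: accataaaggttTGACTCtatctcttgggt
Amino acid synthesis did not move as a group in the way that purine synthesis did: 12 of its 40 genes were lower (30%) and 3 higher (7.5%), with a median of −0.45. Over all genes tested 12.7% were lower and 11.1% higher, so the share of rises was below that of all genes. HIS4, an enzyme of histidine synthesis, had −1.46 ± 0.25 and HOM6, the homoserine dehydrogenase, −1.75 ± 0.28, whereas ARG3, ARG8 and ARO3 rose by 1.05, 1.17 and 0.83. GCN4 itself had 0.88, which did not pass the test. The 12 became 5 without vector replicate 1 and 7 without vector replicate 3, and the 3 became 0 without either of these, 5 without moxGFP replicate 2 and 1 without any of the other libraries. PCL5, a cyclin that directs the breakdown of Gcn4, rose from 22.5, 41.9 and 32.3 CPM to 215, 123 and 168 CPM with EGFP and 165, 738 and 233 CPM with moxGFP (2.97 ± 0.51). Of the 12 genes of leucine and branched-chain synthesis, in a medium without leucine, LEU3, the activator of that pathway, was higher (0.95 ± 0.27) and none was lower, with a median of −0.03.

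Iron uptake was lower too. Of 18 iron genes, 12 were lower and all of those were below the vector in every library, with a median of −1.53. ENB1, an importer of the siderophore enterobactin, was at 572, 661 and 424 CPM in the vector control, 53.0, 57.0 and 71.9 CPM with EGFP and 49.0, 13.9 and 25.7 CPM with moxGFP (−3.70 ± 0.34). The wall mannoproteins FIT2 and FIT3, which help to retain siderophores, had −2.62 and −2.12, the multicopper oxidase FET3 −1.66 and its partner permease FTR1 −0.86. HMX1, the heme oxygenase, moved the other way, from 4.72, 8.61 and 5.72 CPM to 62.8, 55.6 and 31.4 CPM with EGFP and 16.5, 19.5 and 11.9 CPM with moxGFP (2.14 ± 0.33). Aft1 is known to turn on HMX1 together with the uptake genes.

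In sulfate assimilation and methionine synthesis 10 of 20 genes were lower, none was higher, and the median was −0.84. MET17, which makes homocysteine, went from 1768, 998 and 1576 CPM to 215 to 237 CPM with EGFP and 124 to 317 CPM with moxGFP (−2.77 ± 0.32). BY4743 has 1 intact copy of this gene, also called MET15, and it overlaps the dubious frame YLR302C. The methionine synthase MET6 had −2.15 ± 0.41 and the S-adenosylmethionine synthetase SAM1 −2.16 ± 0.48. MET16 and MET1, other enzymes of this route, had 0.77 and 1.10, which did not pass the test. The count of 10 was 5 without vector replicate 1 and 6 without vector replicate 2.

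Other large falls were in genes that belong to no list above. OPT2, a transporter of peptides and glutathione, was at 435, 234 and 169 CPM in the vector control and 3.59 to 19.0 CPM in the overexpression libraries (−4.68 ± 0.40). CSS1, which encodes a secreted protein, was at 1223, 1672 and 412 CPM against 23.5 to 83.4 CPM (−4.65 ± 0.41). MCD4, an enzyme of the GPI anchor pathway, was at 876, 509 and 465 CPM against 29.1 to 108 CPM (−3.29 ± 0.34). RSB1, a transporter of sphingoid bases, was at 77.8, 65.5 and 89.9 CPM with at most 9.83 CPM in any overexpression library (−3.21 ± 0.23). The groups do not overlap for these genes, which follows from how the genes were chosen.

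**Figure D3:**
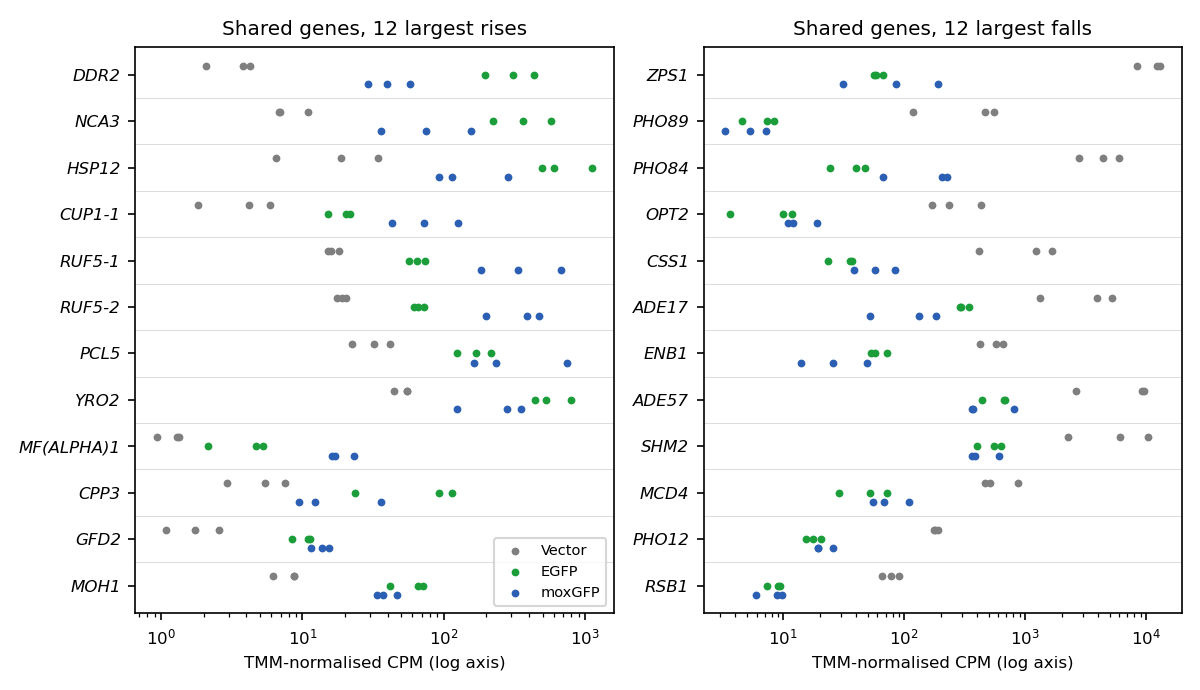
Points are TMM-normalised CPM (log axis) of each library for the 12 shared genes with the largest rise (left) and the 12 with the largest fall (right), with the vector control in grey, EGFP in green and moxGFP in blue. The vector libraries do not overlap with the others, since the genes were chosen so, and for DDR2 the 3 EGFP libraries (197 to 433 CPM) also lie above the 3 moxGFP libraries (29.1 to 57.6 CPM).

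Glycolytic genes were among the abundant transcripts that fell, beside ZPS1, ZRT1 and the plasmid markers. Of 19 glycolytic genes 11 were lower and 0 higher, with a median of −1.24. PGK1, phosphoglycerate kinase, was at 33622, 29507 and 32167 CPM in the vector control, 12493, 14139 and 9699 CPM with EGFP and 11250, 2094 and 4521 CPM with moxGFP (−1.90 ± 0.48, edgeR adjusted p = 0.016). The enolases ENO1 and ENO2, which are near copies of each other, had −1.87 ± 0.38 and −1.84 ± 0.40. GLK1, glucokinase, had the largest fall in the list, −3.00 ± 0.53, from 4841, 5808 and 3898 CPM to 1147 to 1910 CPM with EGFP and 40.1 to 431 CPM with moxGFP, and it overlaps another frame. TDH3, whose promoter drives both GFPs, was at 94037, 74435 and 76546 CPM in the vector control, 28677, 28795 and 26723 CPM with EGFP and 35898, 74514 and 17912 CPM with moxGFP. moxGFP replicate 2 reached the vector range, and the fall of 1.24 on the log2 scale did not pass the test (edgeR adjusted p = 0.083), while the paralogue TDH2 did, with −2.17 ± 0.38. The sequences of TDH2 and TDH3 are nearly identical, so the division of reads between them is uncertain. The count of glycolytic genes moved to 17 without moxGFP replicate 2 and to 6 without vector replicate 1. PDC1, pyruvate decarboxylase, had −1.03 ± 0.31. MTH1, a repressor of hexose transporter genes, fell by 2.68 ± 0.31, and of 20 genes of hexose transport and sensing 2 were lower and 0 higher, a share below the 12.7% of all genes tested.

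Of 19 genes of the tricarboxylic acid cycle 7 were lower and 0 higher. ACO1, aconitase, went from 1704, 1088 and 1235 CPM to 334, 415 and 367 CPM with EGFP and 269, 84.8 and 163 CPM with moxGFP (−2.41 ± 0.33), and both subunits of isocitrate dehydrogenase, IDH1 and IDH2, fell by 1.59 and 1.69. In the list of the respiratory chain and ATP synthase 5 of 34 genes were higher (14.7%, near the 11.1% of all genes tested). There 1 gene, ATP1, was lower, and the median was 0.38. The count of 5 became 0 without vector replicate 1 or 3 and 1 without EGFP replicate 1 or vector replicate 2. It was 2 without EGFP replicate 2 or moxGFP replicate 3 and 12 without moxGFP replicate 2. Of 25 genes of sterol synthesis 8 were lower, among them ERG4, the last enzyme of the pathway, at −1.88 ± 0.23, from between 1567 and 1815 CPM to between 398 and 595 CPM. This count ranged from 2 without vector replicate 1 to 13 without moxGFP replicate 1, with 3 without vector replicate 3, 5 without EGFP replicate 1 and 4 without EGFP replicate 2. OPI3, a methyltransferase of phosphatidylcholine synthesis, fell by 1.24 ± 0.36.

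Genes of the endoplasmic reticulum fell as well. Of 13 genes listed, which are chaperones and folding enzymes besides HAC1 and IRE1, 7 were lower and 0 higher, with a median of −1.24. KAR2, the Hsp70 of this compartment, was at 1663, 1653 and 1452 CPM in the vector control, 828, 1079 and 959 CPM with EGFP and 471, 323 and 306 CPM with moxGFP (−1.43 ± 0.25). EUG1 and MPD1, relatives of protein disulfide isomerase, had −1.53 and −1.48, and the prolyl isomerase FPR2 had −1.64. PDI1, protein disulfide isomerase, had −1.24 and did not pass the test. HAC1, which encodes the activator of the unfolded protein response, did not pass either, and its libraries ran from 18.6 to 1179 CPM within the vector control alone. The vacuolar proteases PRC1 and PEP4 fell by 1.81 ± 0.31 and 1.35 ± 0.26.

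**Figure D4:**
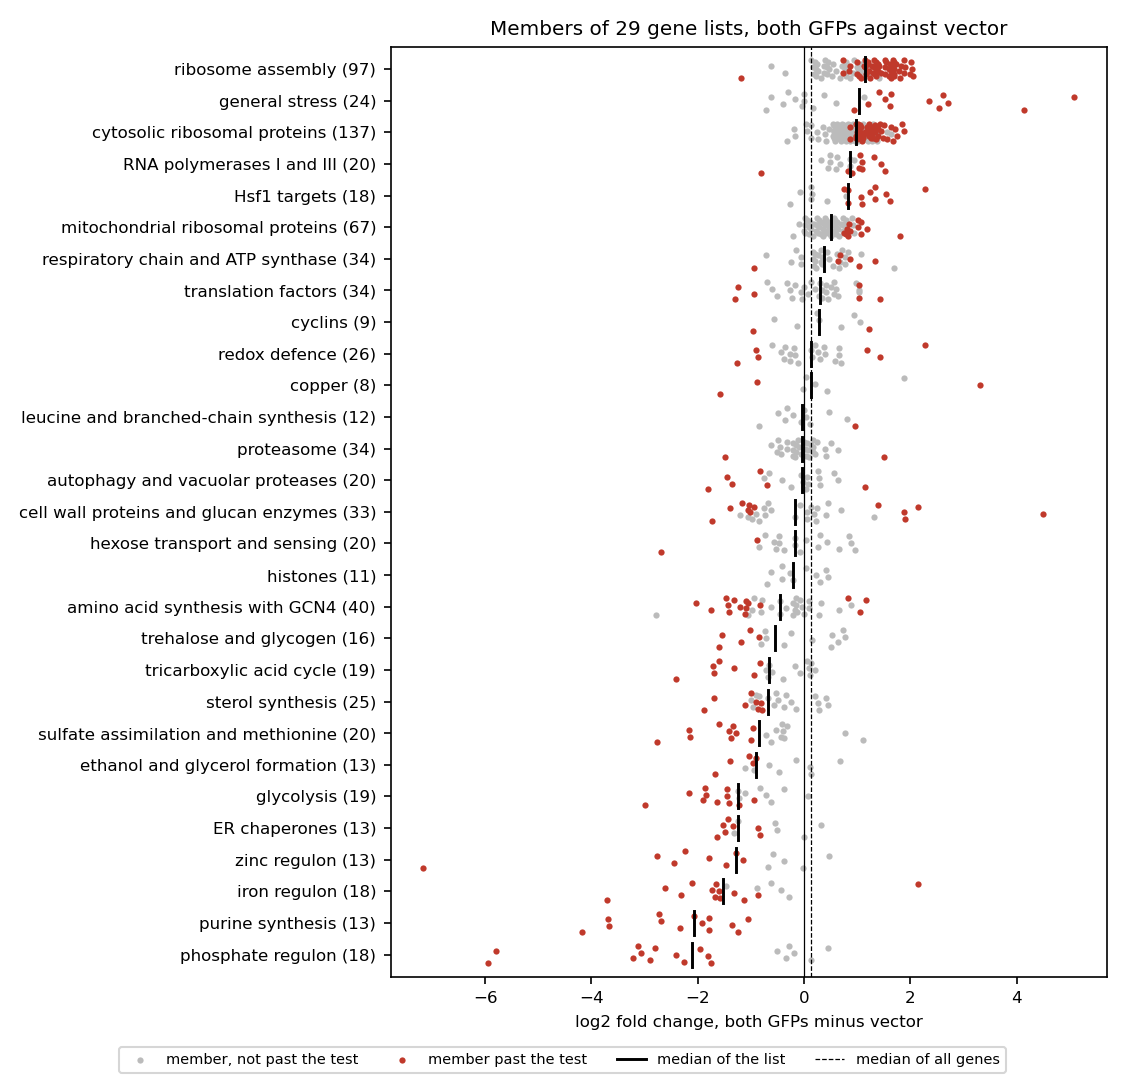
Each point is a gene of 1 of 29 gene lists, ordered by the median of the list, with the log2 fold change of both GFPs minus the vector control on the horizontal axis and the number of genes tested in brackets. Red points passed the test, black bars are list medians and the dashed line is the median of all genes at 0.13. Phosphate, purine, iron and zinc genes lie at the low end, with medians from −2.11 to −1.28, and ribosome assembly at the high end with 1.15.

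Genes of general stress included the largest rise. DDR2, a stress gene regulated by Msn2 and Msn4, was at 3.77, 4.26 and 2.08 CPM in the vector control, 308, 433 and 197 CPM with EGFP and 39.4, 57.6 and 29.1 CPM with moxGFP (5.08 ± 0.44, edgeR adjusted p = 9.9e-05). HSP12, a membrane-stabilising stress protein, was at 18.9, 34.0 and 6.50 CPM, then 1119, 598 and 496 CPM and 92.5, 282 and 113 CPM in the same order of strains (4.13 ± 0.64). Both GFPs were above the vector in every library, and EGFP was in turn above moxGFP. HSP26, a small heat shock protein, had 2.53 ± 0.49, and MOH1, of the same list, had 2.61 ± 0.28. Of 24 stress genes 12 were higher and 0 lower, with a median of 1.03, and 8 of the 12 were above the vector in all 6 libraries. The count was 7 without vector replicate 1 or vector replicate 3. The summed level of the list was 1269 to 1433 CPM in the vector control, 3409 to 5439 CPM with EGFP and 1372 to 1823 CPM with moxGFP, so that the lowest moxGFP library lay within the vector range of this sum, although not for DDR2 or HSP12.

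Msn2 and Msn4 bind AGGGG. It stood on either strand before 1997 of 5839 start codons (34.2%), before 22 of the 24 stress genes (91.7%) and before all 8 of the shared ones. Over all 453 shared genes that rose and have such a window, 154 held it (34%), so it was no more common there than among all genes. The windows of the 4 members with the largest rise among these are given as they read on the strand of the gene, on which all 4 matches are the complement CCCCT.
DDR2, chromosome XV, from 175 to 171 bases before the start codon: tgtcttttctcaCCCCTtatgggacatcaa
HSP12, chromosome VI, from 190 to 186 bases before the start codon: gttccggtcgtcCCCCTcttgatctgaaag
MOH1, chromosome II, from 236 to 232 bases before the start codon: ttccttatcctgCCCCTtatcactctgaac
HSP26, chromosome II, from 326 to 322 bases before the start codon: ggttattccctcCCCCTtatgcgtccaaaa

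Among 18 targets of Hsf1, 11 were higher and 0 lower for the mean of both GFPs, but 3 of them were above the vector in every library. These were BTN2, which sorts misfolded proteins, at 4.58, 5.20 and 6.32 CPM in the vector control, 46.7, 47.5 and 63.1 CPM with EGFP and 11.95, 13.2 and 13.5 CPM with moxGFP (2.27 ± 0.24), YDJ1, an Hsp40 (1.09 ± 0.24), and FES1, a nucleotide exchange factor of Hsp70 (1.24 ± 0.27). The others that passed, such as HSP82 (1.54), HSP42 (1.61) and HSP104 (1.07), had libraries that overlapped with the vector. The list count was 4 without vector replicate 1, 7 without vector replicate 2 and 2 with both GFPs as 1 group. In sum these targets stood at 3974 to 5560 CPM in the vector control. With EGFP the sum was 9254 to 10411 CPM and with moxGFP 2405 to 3188 CPM, so moxGFP lay below the vector range of this sum. Trehalose and glycogen genes, which Msn2 and Msn4 also control, included 5 of 16 that were lower (31.2%) and none that was higher. Over all genes tested 12.7% were lower. Only 1 of the 5, TPS3, a subunit of trehalose synthase, lay below the vector in every library. The 5 became 1 without vector replicate 1, 2 without vector replicate 3, 3 without EGFP replicate 1 and 8 without moxGFP replicate 2. With both GFPs as 1 group the count was 0. In sum the trehalose and glycogen genes stood at 1640 to 2402 CPM in the vector control, 2692 to 3648 CPM with EGFP and 596 to 895 CPM with moxGFP. For both lists the mean of the GFPs thus joins sums on opposite sides of the vector.

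Other large rises fell in no list or in lists that did not move together. NCA3, of the SUN family of cell wall proteins, was at 6.87, 10.9 and 6.93 CPM in the vector control, 364, 570 and 225 CPM with EGFP and 155, 35.8 and 74.5 CPM with moxGFP (4.48 ± 0.55). YRO2, a membrane protein, was at 44.1 to 55.0 CPM, then 442 to 792 CPM and 124 to 350 CPM (2.91 ± 0.39). GFD2 rose by 2.69 ± 0.35 and CPP3 by 2.85 ± 0.62. CUP1-1, the copper metallothionein, rose from 4.18, 5.88 and 1.82 CPM to 15.1 to 21.8 CPM with EGFP and 43.1 to 127 CPM with moxGFP (3.31 ± 0.46). CUP1-1 has identical copies and overlaps RUF5-1, which with RUF5-2 rose as well (3.29 and 3.01), so the reads of these 3 entries cannot be told apart with certainty. Of the other copper genes CTR2, the vacuolar copper exporter, fell by 1.59 ± 0.34. The wall mannoproteins CWP2 and TIP1 rose by 1.39 ± 0.45 and 1.89 ± 0.36. Among 33 cell wall genes 5 were higher and 7 lower (15.2 and 21.2%, against 11.1 and 12.7% of all genes tested). The 5 became 2 without any of the vector replicates, and the 7 ranged from 2 without vector replicate 1 or 3 or EGFP replicate 1, through 4 without EGFP replicate 2 or moxGFP replicate 3, to 12 without moxGFP replicate 2 and 14 without moxGFP replicate 1. MF(ALPHA)1, the alpha-factor gene that cells with both mating types keep off, was at 1.35, 0.937 and 1.30 CPM in the vector control, 5.27, 4.66 and 2.14 CPM with EGFP and 17.0, 16.2 and 23.0 CPM with moxGFP (2.86 ± 0.39). The mating-type markers went both ways. Of the 17 tested, 8 passed the test and lay on the same side in every library, 4 higher and 4 lower. The others that rose were the a-factor gene MFA1 (2.11 ± 0.69), MF(ALPHA)2 (1.36 ± 0.45) and the agglutinin subunit AGA2 (1.61 ± 0.46). Those that fell were FAR1, at 119 to 149 CPM in the vector control, 42.5 to 62.8 CPM with EGFP and 11.6 to 27.2 CPM with moxGFP, HO, the mating-type endonuclease (−2.14 ± 0.28), GPA1, a G protein subunit (−1.51 ± 0.29), and BAR1, the protease that degrades alpha-factor (−1.09 ± 0.29). Whether these markers have a part in the other results was not tested.

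The machinery that makes ribosomes rose as well. Of 97 ribosome assembly genes 56 were higher and 1 lower, with a median of 1.15, and 30 were above the vector in every library. NOG2, a GTPase of the large subunit, was at 8.09, 15.4 and 6.32 CPM in the vector control, 32.9, 30.2 and 27.8 CPM with EGFP and 46.5, 54.6 and 61.8 CPM with moxGFP (2.02 ± 0.31). NOC2, an assembly factor of the large subunit, was at 7.41, 11.7 and 6.93 CPM, then 13.5, 12.5 and 29.9 CPM, then 47.7, 77.5 and 68.8 CPM (1.99 ± 0.36). FAF1 and UTP14, factors of the small subunit, rose by 2.02 ± 0.43 and 1.89 ± 0.39. NOG2 holds the small nucleolar RNA gene SNR191 and is uncertain for that reason. The list count of 56 fell to 18 without vector replicate 1, to 23 without vector replicate 3 and with both GFPs as 1 group, to 1 with library sizes alone and to 0 with ERCC scaling, where the list medians were 1.70 and 1.27. The motifs GATGAG and AAAATTTT, known from the promoters of such genes, stood on either strand before 89 and 78 of the 97 assembly genes and before 29 and 26 of the 30 shared ones, against 28.3 and 12.5% of all genes, so that the shared members were much like the whole list. Over all 453 shared genes that rose and have such a window the shares were 41.5% for GATGAG and 20.3% for AAAATTTT, and over the 623 that fell 22.3% and 8.83%.

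Of 137 genes of cytosolic ribosomal proteins 48 were higher and 0 lower, with a median of 0.97, but 17 of them were above the vector in every library. RPL43A was at 196, 269 and 312 CPM in the vector control, 714, 401 and 433 CPM with EGFP and 714, 3453 and 792 CPM with moxGFP (1.83 ± 0.53), where moxGFP replicate 2 was the highest by far. In that library the summed level of the list was 299494 CPM, against 61889 to 128140 CPM in the other overexpression libraries and 56051 to 88242 CPM in the vector control, which overlaps with EGFP. The count of 48 became 81 without moxGFP replicate 2, 1 without vector replicate 1, 6 without vector replicate 2, 22 without vector replicate 3, 13 without EGFP replicate 1 and 19 without EGFP replicate 3. With both GFPs as 1 group it was 2. Of the 137 genes, 94 have a near-identical copy and are uncertain one by one. Among 20 genes listed for RNA polymerases I and III, 9 were higher, such as RPC82 (1.53 ± 0.29), and 1, the largest subunit of polymerase III, RPO31, was lower (−0.81 ± 0.27). The 9 became 1 without vector replicate 1 or 3, 4 without EGFP replicate 1, EGFP replicate 3 or moxGFP replicate 3, and 15 without moxGFP replicate 2.

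Several groups did not move together. Of 34 proteasome subunits and their activator, RPN4, the activator, was higher (1.51 ± 0.39) although its libraries overlapped with the vector, and RPN2, a base subunit, was lower in every library (−1.49 ± 0.25). The median of that list was −0.03. Of 11 histone genes none passed the test in either direction. Among 9 cyclins CLB3, a mitotic cyclin, was higher, from 5.20 to 7.41 CPM to 14.7 to 17.98 CPM with EGFP and 8.61 to 15.1 CPM with moxGFP (1.22 ± 0.28), and CLN3, a G1 cyclin, was lower (−0.95) with libraries that overlapped. Among 26 redox genes 3 were higher and 3 lower (11.5% each way, near the 11.1 and 12.7% of all genes), with the mitochondrial thioredoxin TRX3 at 1.43 ± 0.30 and the peroxiredoxin TSA1 at −1.27 ± 0.38. In the proteasome, cyclin and redox lists, and in those of leucine, hexose transport and copper genes, the counts of 1 to 3 changed by 1 or more when single libraries were left out.

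The markers of the plasmid were lower in both strains. LEU2 was at 10090, 11821 and 8193 CPM in the vector control, 1925, 1744 and 1070 CPM with EGFP and 1511, 4193 and 1344 CPM with moxGFP (−2.38 ± 0.40). URA3 was at 25006 to 29428 CPM, 4086 to 9786 CPM and 6464 to 10154 CPM (−1.86 ± 0.37). The groups do not overlap for either marker. HIS3, which is not among the stated markers of the plasmid and is disrupted on the chromosomes of this strain, had −0.42 ± 0.28, which did not pass the test. Plasmid copy number was not measured here, and a lower marker level per plasmid and fewer plasmids cannot be told apart.

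Whether a shared gene responded to the same extent in both strains was tested by the contrast of moxGFP with EGFP, which does not use the vector libraries and was not part of the choice, although a gene with all 6 libraries on the same side tends to have GFP groups that are closer. Over all genes tested, moxGFP was higher than EGFP for 474 (7.46%) and lower for 448 (7.06%), by the same edgeR test. Of the 468 shared genes that rose, 48 were higher with moxGFP (10.3%) and 23 lower (4.91%). Of the 651 that fell, 12 were higher with moxGFP (1.84%) and 48 lower (7.37%). The 95% interval of the difference lay within 2-fold either way for 159 of the genes that rose (34.0%) and for 204 of those that fell (31.3%), against 22.5% of all genes tested, and for the other genes that did not pass this test the interval reaches beyond 2-fold, so that the data do not tell whether the response was equal. PDC1 had a difference of 0.01 (95% interval −0.79 to 0.81), PHO12 of 0.25 (−0.29 to 0.78), RSB1 of −0.07 (−0.68 to 0.54), ZRT3 of −0.04 (−0.76 to 0.67) and HIS4 of −0.03 (−0.68 to 0.62).

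The groups differed in this respect. With EGFP and with moxGFP against the same vector libraries, the median log2 fold changes were −2.29 and −1.88 for phosphate genes, −1.37 and −1.13 for zinc genes and −2.11 and −2.20 for purine genes. In these 3 lists moxGFP differed from EGFP for 2 of 18, 1 of 13 and 1 of 13 genes. The phosphate and zinc genes among these were higher with moxGFP and the purine gene was lower. Over all genes tested 7.46% were higher with moxGFP and 7.06% lower. Counts this small and near these shares do not show that the 3 lists responded equally. For the stress list the medians were 1.56 with EGFP and 0.46 with moxGFP, and 16 of 24 genes were lower with moxGFP than with EGFP. For Hsf1 targets they were 1.55 and −0.01, with 15 of 18 lower. Trehalose and glycogen genes had 0.77 and −1.52, with 14 of 16 lower. Ribosome assembly had 0.50 and 1.75, with 40 of 97 higher with moxGFP, and cytosolic ribosomal proteins had 0.35 and 1.54, with 49 of 137 higher.

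**Figure D5:**
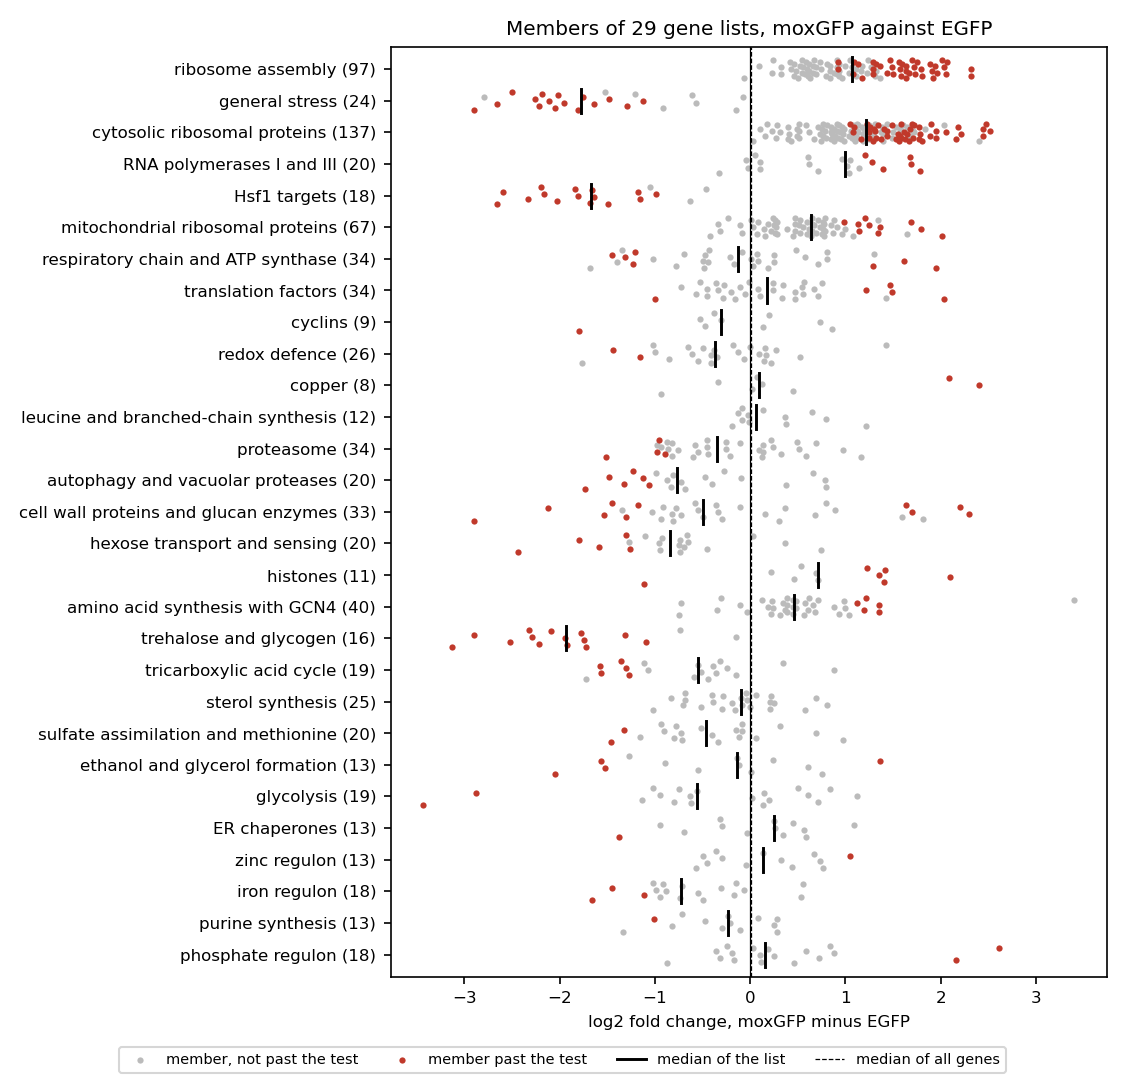
Each point is a gene of the same 29 lists in the same order, with the log2 fold change of moxGFP minus EGFP on the horizontal axis. Red points passed the test and black bars are list medians. Stress, Hsf1 and trehalose genes lie to the left, with medians of −1.78, −1.67 and −1.93, ribosome genes to the right, with 1.07 for assembly and 1.22 for ribosomal proteins, and zinc and phosphate genes near 0 with 0.14 and 0.15.

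At the edge of the rule, RPL23B, a ribosomal protein gene with a near-identical copy, was just inside with 513 CPM in vector replicate 3 and 515 CPM in EGFP replicate 2, and YAR1, an assembly factor, had 18.9 CPM in vector replicate 2 and 19.0 CPM in EGFP replicate 3. NHP2, a small nucleolar RNA protein, just missed it, with 33.1 CPM in vector replicate 2 and 33.0 CPM in EGFP replicate 2. ERG9, squalene synthase, missed it on the lower side, with 172.6 CPM in vector replicate 2 and 173.5 CPM in EGFP replicate 3.

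The 110 shared genes named by rule were chosen by the same test on the same libraries, which favours passing again and gives no independent support. Of them, 23 passed the test under all 19 alternative settings that were tried. They included ZPS1, ZRT3, PHO84, PHO89, PHO12, SPL2, ADE17, ADE57, SHM2, ENB1, FIT2, MET17, OPT2, CSS1, MCD4, RSB1, MTH1 and TDH2 among the falls, and DDR2, HSP12, NCA3 and CUP1-1 among the rises, with LEU2 as the last. The balance of the calls between the 2 directions depended on the scaling. When libraries were scaled by the ERCC spike-ins, 8 genes were higher and 56 lower, so 12.5% of the calls were rises against 46.7% with TMM. With library sizes alone 41 were higher and 35 lower while the median of all genes moved to 0.62. With ERCC scaling this median was 0.04, and the list medians were −2.10 for phosphate, 0.90 for stress and 0.70 for ribosomal protein genes. The spike-ins took 0.144 to 0.405% of the counts within the vector control alone. The scaling also cut the counts of the lists. With ERCC scaling and with library sizes alone, respectively, 7 and 6 phosphate, 3 and 2 zinc, 5 and 4 purine, 2 and 2 iron and 2 and 1 glycolytic genes were lower, and 2 and 6 stress genes, 0 and 1 Hsf1 targets and 0 and 1 ribosomal protein genes were higher. No gene of the endoplasmic reticulum or sterol lists passed the test with either. Genes that were shared again under an alternative kept their direction, but these were 54 of 1119 with ERCC scaling and 63 with library sizes alone. Direction was not counted for shared genes that were not shared again, except for the named ones, none of which changed it.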

How the data were processed

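Total RNA was taken by hot phenol from 3 biological replicates, as the labels name them, of each of 3 strains, ERCC spike-ins were added, and stranded total-RNA libraries were sequenced as paired ends. The deposited values are whole-number read counts per gene, which the authors made with FastP, HISAT2 (2.2.0), SAMtools (1.11) and StringTie, and the submitters' processing notes also name edgeR (3.28.1). The genome build, the annotation and the strand setting of the counting are not given in the sources used here.

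The counts of 7126 genes, without 92 ERCC entries and the 2 GFP entries, were filtered with filterByExpr, scaled by TMM and fitted with edgeR (4.0.16, R 4.3.3) over all 9 libraries with a mean for each strain. Contrasts were the mean of both GFPs minus the vector and moxGFP minus EGFP, by glmQLFTest, with Benjamini-Hochberg adjustment over all genes and a threshold of 0.05. The first contrast and the side of the libraries use the same values, so the share of genes that met both is no second test. Motifs were read from the R64 reference and annotation of strain S288C for the 6079 gene entries that matched it. A gene was called a copy of another at 90% identity over 50% of its length or more (BLAST 2.17.0). The code was tested on simulated data. Gene lists and members were chosen with earlier results of these data known.

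Named genes were shared genes with a gene name and a mean of at least 5 CPM, namely the 12 with the largest rise and the 12 with the largest fall, the 6 most abundant in each direction and up to 4 shared members of each list with the largest change, besides LEU2, URA3, HIS3 and TDH3. Other list members, markers and genes at the edge were chosen after their values were seen. Alternatives were RLE factors, library sizes alone, ERCC scaling, DESeq2 (1.42.0), no filter, a minimum of 10 counts, leaving out ribosomal RNA, keeping the GFP entries, both GFPs as 1 group, a replicate block and leaving out each library.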

Additional observations from a re-analysis of the deposited data

Results flagged for a closer look

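Of the 110 shared genes named by rule, 24 differed between moxGFP and EGFP by edgeR's quasi-likelihood test (adjusted p from 0.0025 to 0.044 over all genes), and both strains lay on the same side of the vector for each of them. Values are log2 fold changes of moxGFP minus EGFP.

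Among genes that fell, the fall was smaller with moxGFP for PHO84 (2.16) and SPL2 (2.61), both of the phosphate list. It was larger with moxGFP for the glucokinase gene GLK1 (−2.88), the aldehyde dehydrogenase ALD6 (−1.52), the isocitrate dehydrogenase subunits IDH1 (−1.58) and IDH2 (−1.30), MTH1 (−1.58), the S-methylmethionine permease MMP1 (−1.46) and the chaperone KAR2 (−1.38).

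Among genes that rose, the rise was smaller with moxGFP for the stress genes DDR2 (−2.90), HSP12 (−2.18) and HSP26 (−1.96), for NCA3 (−2.12), for the chaperone genes BTN2 (−2.02) and YDJ1 (−1.15) and for the heme oxygenase HMX1 (−1.66). It was larger with moxGFP for CUP1-1 (2.09), RUF5-1 (2.62), RUF5-2 (2.41), MF(ALPHA)1 (2.21), the wall gene TIP1 (1.70), the assembly factors NOC2 (1.80) and FAF1 (1.64) and the ribosomal protein gene RPL37A (1.59). CUP1-1 and the RUF5 genes overlap, and moxGFP replicate 2 was the highest library for both RUF5 genes, with 679 CPM for RUF5-1 and 468 CPM for RUF5-2.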

How the results depend on the processing

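With library sizes alone the test called 41 genes higher and 35 lower, 296 lay below the vector in every library, and 33 and 34 were shared. With ERCC scaling 8 and 56 were called, 59 and 243 lay on the same side above and below, and 5 and 49 were shared. With both GFPs as 1 group of 6 libraries, 299 and 440 were called and 286 and 429 were shared. The replicate block gave 539 and 709 calls, with 385 and 594 shared genes. Same-numbered libraries had a mean correlation of deviations of −0.0221 and the numbers were not taken as pairs. Leaving out each library gave 162 to 1282 genes called higher and 332 to 1296 lower. On the same side were 645 to 1031 and 820 to 1114, and 148 to 827 and 324 to 893 were shared. The same-side rule is easier to meet with fewer libraries, so a rise of its counts was built in. Among the 112 named genes, 73 lost their call with library sizes alone, 83 with ERCC scaling, 9 with the replicate block and 42 without vector replicate 1. HIS3, not called, was at 0.14 with library sizes alone (edgeR adjusted p = 0.876). The other settings kept these counts over all genes within 1.5 times. In single lists DESeq2 gave 81 ribosomal protein genes higher against 48 and 12 cell wall genes lower against 7, and the replicate block gave 22 ribosomal protein genes. With both GFPs as 1 group, 2 ribosomal protein genes, 2 Hsf1 targets against 11 and 2 RNA polymerase genes against 9 were higher. In that setting 4 endoplasmic reticulum genes against 7 and 0 trehalose and glycogen genes against 5 were lower, while the phosphate and zinc lists kept 12 and 8. The cause of these differences was not tested. Depth was lower in the overexpression libraries, and moxGFP replicate 2 had 3084515 counts outside ribosomal RNA and the GFPs.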
